A study of Mus musculus with 11 samples.

Results

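The genes described here are 9 enzymes, regulators and carriers through which heart muscle takes up and burns ketone bodies and the branched-chain amino acids (BCAAs) leucine, isoleucine and valine. They were chosen by name (*Slc16a1*, *Bdh1*, *Oxct1* and *Acat1* for ketone bodies, and *Bcat2*, *Bckdha*, *Bckdhb*, *Dbt* and *Ppm1k* for BCAAs) and are 9 of the 25006 genes counted in each library. All 9 passed the filter on low counts, with between 150 and 15323 reads per gene and library. The study asked how *Vegfc* made by myeloid cells shapes the response of the mouse heart to myocardial infarction (MI), using mRNA-Seq of left ventricle. There were 2 naive control mice, 3 naive *Vegfc*-deficient mice, 3 control mice after MI and 3 *Vegfc*-deficient mice after MI. MI was a permanent ligation of a coronary artery, infarcted tissue was taken 9 days later, and a matching piece of ventricle was taken from unoperated animals.

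The *Vegfc*-deficient mice were *Vegfc* fl/fl ; *LysMCre*, in which Cre recombinase is driven from the lysozyme 2 locus and acts in myeloid cells, so that cardiomyocytes keep both alleles. The sample labels give the controls as *Vegfc* fl/fl, whereas the tissue protocol names *LysMCre* mice. Both groups carry the floxed allele by the sample labels. Age and sex of the animals were not given in the sources used here.

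Ketone bodies enter the cell through monocarboxylate carriers, are oxidized to acetoacetate, receive coenzyme A from succinyl-CoA, and are cleaved to acetyl-CoA for the citric acid cycle. BCAAs lose their amino group to a branched-chain aminotransferase, and the resulting keto acids are then committed to oxidation by the branched-chain keto acid dehydrogenase (BCKDH) complex, which a kinase switches off and a phosphatase switches on. The adult heart runs mostly on fatty acids, but oxidizes ketone bodies readily, and lower expression of BCAA catabolic genes has been described in failing hearts.

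Total counts were 10824989 to 26782728 per library. Levels are given as CPM (counts scaled to a common library size) after scaling by the trimmed mean of M values (TMM), and changes as log2 fold changes ± SE. A change was called at a Benjamini-Hochberg adjusted p below 0.05 in edgeR's quasi-likelihood test. *Xist* was at 0.624 to 11.8 CPM in naive and at 188 to 403 CPM in MI libraries, and 4 Y-linked genes summed to 152 to 195 CPM in naive and to 0 to 1.85 CPM in MI libraries, so sex and MI cannot be told apart. The summed level of 12 cardiomyocyte genes was 78720 to 108870 CPM in naive libraries and 2913 to 28203 CPM after MI, so in bulk tissue fewer cardiomyocytes and less RNA per cardiomyocyte cannot be told apart. *Lyz2*, which the *LysMCre* allele disrupts, was at 2120.5 to 5380.2 CPM in controls and 12.4 to 1392 CPM in 5 deficient libraries, but at 4565 CPM in M149, whose label makes it a naive *Vegfc*-deficient mouse. *Vegfc* itself was at 21.9 to 45.5 CPM in controls and 22.4 to 34.5 CPM in deficient libraries, and did not separate the genotypes.

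The promoters of 4 genes are shown first, because 2 of them belong to a pair of carriers that changed in opposite directions after MI and 2 belong to a BCKDH subunit and the phosphatase of the complex, which fell together. Sequences are from RefSeq (GRCm38.p6), run from 250 bases before to 50 bases after the annotated start, 5′ to 3′ on the gene's strand. Capitals mark the core of the hypoxia-inducible factor motif, ACGTG, and the GC box, GGGCGG, each searched on both strands. The E-box CACGTG contains ACGTG on both strands. *Slc16a1* lies at chr3:104638414-104638713 (+ strand), *Slc16a3* at chr11:120948817-120949116 (+ strand), *Bckdhb* at chr9:83924887-83925186 (+ strand) and *Ppm1k* at chr6:57535438-57535737 (- strand).
Slc16a1: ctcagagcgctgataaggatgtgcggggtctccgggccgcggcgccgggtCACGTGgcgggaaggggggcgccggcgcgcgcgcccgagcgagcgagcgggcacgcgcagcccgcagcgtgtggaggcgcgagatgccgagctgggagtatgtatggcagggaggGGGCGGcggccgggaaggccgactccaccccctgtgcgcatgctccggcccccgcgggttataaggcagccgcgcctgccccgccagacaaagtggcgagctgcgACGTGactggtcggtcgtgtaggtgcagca
Slc16a3: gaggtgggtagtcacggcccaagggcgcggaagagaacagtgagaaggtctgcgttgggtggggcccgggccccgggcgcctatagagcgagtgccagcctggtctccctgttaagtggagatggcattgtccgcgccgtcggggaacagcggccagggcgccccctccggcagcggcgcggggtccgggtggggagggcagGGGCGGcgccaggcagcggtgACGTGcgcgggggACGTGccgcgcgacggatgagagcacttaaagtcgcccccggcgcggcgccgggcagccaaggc
Bckdhb: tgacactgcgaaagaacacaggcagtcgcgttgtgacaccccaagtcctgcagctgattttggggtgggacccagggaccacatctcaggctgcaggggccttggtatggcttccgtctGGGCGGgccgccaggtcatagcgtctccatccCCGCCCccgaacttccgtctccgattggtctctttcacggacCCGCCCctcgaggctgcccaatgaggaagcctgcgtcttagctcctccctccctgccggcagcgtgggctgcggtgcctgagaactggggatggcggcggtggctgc
Ppm1k: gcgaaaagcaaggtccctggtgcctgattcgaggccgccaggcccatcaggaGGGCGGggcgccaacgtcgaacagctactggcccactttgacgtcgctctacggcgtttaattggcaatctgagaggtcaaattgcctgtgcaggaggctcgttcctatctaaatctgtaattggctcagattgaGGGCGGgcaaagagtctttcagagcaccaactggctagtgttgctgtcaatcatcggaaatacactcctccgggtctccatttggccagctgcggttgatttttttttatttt
ACGTG was found in 19.6% and GGGCGG in 35.7% of the 32851 promoter windows. Both carriers held both motifs, and the *Slc16a1* window also held CACGTG, which 7.15% of windows did. The printed *Bckdhb* window held 3 GC boxes and that of *Ppm1k* 2, and neither held ACGTG. Another *Bckdhb* window, at chr9:83948531-83948830, held 0 of either motif. TNAAGGTCA, the half-site of the estrogen-related receptors, which drive many mitochondrial genes, was found in 1.28% of windows and in none of the 10 windows listed for 7 of the 9 genes. *Acat1* and *Dbt* had no window in the table. These matches describe letters in a window and not sites that are used.

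All 9 genes fell after MI in control mice and again in *Vegfc*-deficient mice, by 1.24 to 2.67 and by 1.26 to 2.79 on the log2 scale, in each case with every MI library below every naive library of the same genotype, as was so for 4871 of the 14779 genes tested in control and 4536 (30.7%) in *Vegfc*-deficient mice. This direction held under TMM, relative log expression and plain library size, but not when libraries were scaled on cardiomyocyte genes, where the estimates were above 0 for 9 genes in control and for 8 genes in *Vegfc*-deficient mice. The median change of the 9 genes was -1.95 in control mice and -1.73 in *Vegfc*-deficient mice, beside medians of 0.13 and 0.10 over all 14779 genes tested. Much of the transcriptome differed between MI and naive libraries: 24.1% of all genes tested were called lower and 26.3% higher in control mice. In *Vegfc*-deficient mice 27.7% were called lower and 30.0% higher.

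**Figure D1:**
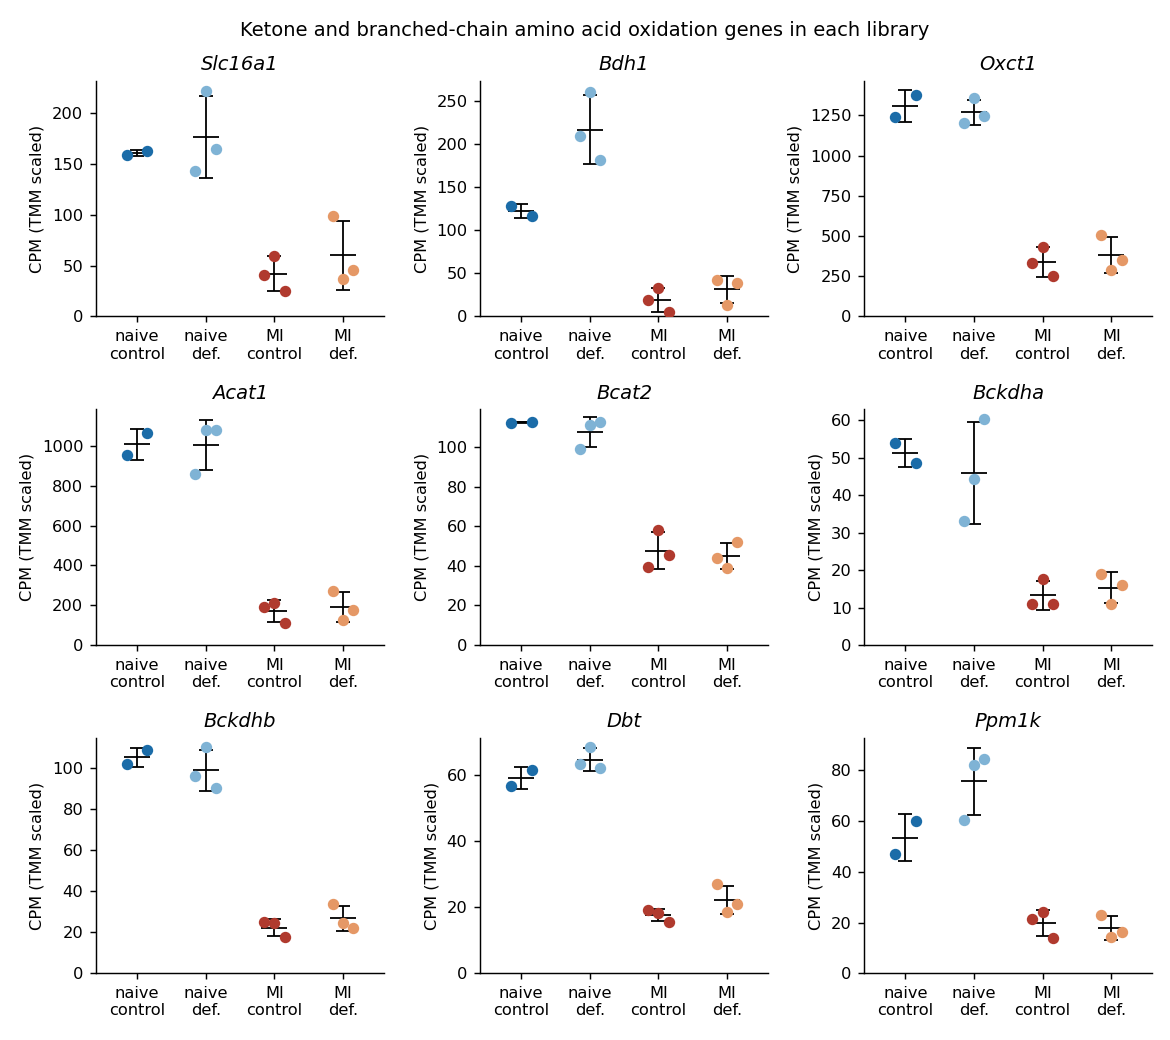
CPM (TMM scaled, linear axes from 0) of the 9 genes in each library, by group; def. is *Vegfc*-deficient, each point is 1 mouse, and bars are the mean ± SD. The MI points lie below the naive points in every panel, and *Bdh1* is the only gene of the 9 at under 10 CPM in a library (5.50 CPM in M40).

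*Slc16a1* (ENSMUSG00000032902, GRCm38 chr3:104638668-104658462, + strand) encodes the carrier MCT1, which moves ketone bodies, lactate and pyruvate across the plasma membrane. It was at 158 and 163 CPM in naive controls, and at 40.9, 59.8 and 25.2 CPM in MI control mice M006, M38 and M40. The *Vegfc*-deficient mice had 143, 221 and 164 CPM in the naive animals M149, M150 and M34, and at 98.8, 36.4 and 45.4 CPM after MI in M35, M900 and M913. All MI values lay below all naive values, with M35 nearest to them. The change was -1.94 ± 0.43 in control mice (edgeR quasi-likelihood test, adjusted p = 0.00428) and -1.55 ± 0.39 in *Vegfc*-deficient mice (adjusted p = 0.00691).

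*Bdh1* (ENSMUSG00000046598, chr16:31422280-31458901, + strand) encodes the mitochondrial dehydrogenase that turns 3-hydroxybutyrate, the main circulating ketone body, into acetoacetate. Its levels in naive controls were 129 and 117 CPM, against 19.7, 32.5 and 5.50 CPM after MI. In naive *Vegfc*-deficient mice the levels were 209, 261 and 181 CPM, against 42.5, 13.1 and 38.8 CPM after MI. *Bdh1* had the largest fold change among the 9 genes in both genotypes, 6.38-fold lower in control (-2.67 ± 0.61, edgeR adjusted p = 0.00516) and 6.91-fold lower in *Vegfc*-deficient mice (-2.79 ± 0.58, adjusted p = 0.00237), but its SE was also the largest and its interval in control mice, -4.03 to -1.31, covered the estimates of 7 of the other 8 genes. In control mice the change of *Bdh1* was -3.36 without M38 and -2.23 without M40, and *Acat1* had the larger fall without M40 (-2.33) and without M44 (-2.64 against -2.61).

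*Oxct1* (ENSMUSG00000022186, chr15:4026383-4155344, + strand) encodes the succinyl-CoA transferase SCOT, the step that liver lacks and that commits ketone bodies to oxidation. It was at 1240.5 and 1378 CPM in naive controls and at 331, 434 and 252 CPM after MI. *Vegfc*-deficient mice had 1205, 1358 and 1247 CPM when naive and 509.6, 290.2 and 349 CPM after MI. The naive values were tight, within 1205 to 1378 CPM across both genotypes. *Oxct1* fell by 1.95 ± 0.28 in control (edgeR adjusted p = 0.00055) and by 1.73 ± 0.26 in *Vegfc*-deficient mice (adjusted p = 0.00038).

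*Acat1* (ENSMUSG00000032047, chr9:53580522-53610382, - strand) encodes the mitochondrial thiolase that cleaves acetoacetyl-CoA, and that also serves the last step of isoleucine breakdown. Its levels were 955 and 1066 CPM in naive controls and 192, 210.1 and 110.1 CPM after MI. The *Vegfc*-deficient values were 861, 1081 and 1079 CPM when naive and 271, 124 and 176 CPM after MI. The decrease was 5.91-fold in control (-2.56 ± 0.35, edgeR adjusted p = 0.000411) and 5.29-fold in *Vegfc*-deficient mice (-2.40 ± 0.32, adjusted p = 0.000203).

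Among the BCAA genes, *Bcat2* (ENSMUSG00000030826, chr7:45570153-45589711, + strand), the mitochondrial aminotransferase that starts BCAA breakdown, fell the least in both genotypes, except that without M913 *Slc16a1* fell less in *Vegfc*-deficient mice. It was at 112 and 113 CPM in naive controls and 39.5, 58.2 and 45.5 CPM after MI. In *Vegfc*-deficient mice it was at 99.0, 111 and 113 CPM when naive and 43.8, 38.8 and 51.9 CPM after MI. These 2 ranges are narrow and far apart, and the change was -1.24 ± 0.18 (edgeR adjusted p = 0.000511) in control and -1.26 ± 0.16 (adjusted p = 0.000157) in *Vegfc*-deficient mice.

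The BCKDH complex is built from the E1 subunits encoded by *Bckdha* (ENSMUSG00000060376, chr7:25629946-25658981, - strand) and *Bckdhb* (ENSMUSG00000032263, chr9:83925145-84124240, + strand), which decarboxylate the keto acid, and from the E2 core encoded by *Dbt* (ENSMUSG00000000340, chr3:116513070-116549981, + strand), which passes the acyl group to coenzyme A. *Bckdha* was at 53.9 and 48.7 CPM in naive controls and 11, 17.8 and 11 CPM after MI, with 33.2, 44.3 and 60.4 CPM in naive and 19, 10.9 and 16 CPM in MI *Vegfc*-deficient mice. *Bckdhb* was at 102 and 109 CPM in naive controls and 25, 24.3 and 17.5 CPM after MI, with 96.0, 110.0 and 90.4 CPM in naive and 33.6, 24.6 and 22.2 CPM in MI *Vegfc*-deficient mice. *Dbt* was at 56.7 and 61.6 CPM in naive controls and 19.1, 18.4 and 15.7 CPM after MI, with 63.4, 68.6 and 62.1 CPM in naive and 27, 18.7 and 21 CPM in MI *Vegfc*-deficient mice. Subunits of the same complex therefore fell in every MI library. In control mice the changes were -1.95 ± 0.30 for *Bckdha*, -2.24 ± 0.20 for *Bckdhb* and -1.74 ± 0.16 for *Dbt* (edgeR adjusted p = 0.000752, 0.000133 and 0.000137). In *Vegfc*-deficient mice they were -1.59 ± 0.28, -1.88 ± 0.19 and -1.54 ± 0.15 (edgeR adjusted p = 0.000886, 5.64e-05 and 4.9e-05). Per kilobase of exon, *Bckdhb* stood at 1.58 to 3.04 times the level of *Bckdha* in naive and at 1.44 to 2.40 times in MI libraries, so these ranges overlapped, as did those of *Dbt* to *Bckdha* (0.583 to 1.08 and 0.589 to 0.987).

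*Ppm1k* (ENSMUSG00000037826, chr6:57506502-57535468, - strand) encodes the mitochondrial phosphatase that activates BCKDH, and *Bckdk* encodes the kinase that inactivates it. *Ppm1k* was at 46.8 and 60.1 CPM in naive controls and 21.2, 24 and 14 CPM after MI. Naive *Vegfc*-deficient mice had 60.4, 81.9 and 84.5 CPM, against 23, 14.1 and 16.4 CPM after MI. The 3 naive *Vegfc*-deficient values lay above both naive control values, and the change was -1.44 ± 0.27 in control (edgeR adjusted p = 0.00171) and -2.08 ± 0.25 in *Vegfc*-deficient mice (adjusted p = 0.000113). *Bckdk* fell too, from 131 to 159 CPM in naive to 50.7 to 73.7 CPM in MI libraries (-1.28 ± 0.17 and -1.21 ± 0.15, edgeR adjusted p = 0.000362 and 0.000148). The ratio of kinase to phosphatase per kilobase was 5.24 and 4.31 in naive controls and 4.1, 5 and 7.39 in MI controls, which overlap. It was 3.54, 2.91 and 2.82 in naive and 4.68, 5.85 and 6.54 in MI *Vegfc*-deficient mice, which do not. Between genotypes the MI ratios overlapped, whereas the naive ratios of *Vegfc*-deficient mice lay below those of controls. Whether the shift of the ratio after MI differs between the genotypes was not tested.

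**Figure D2:**
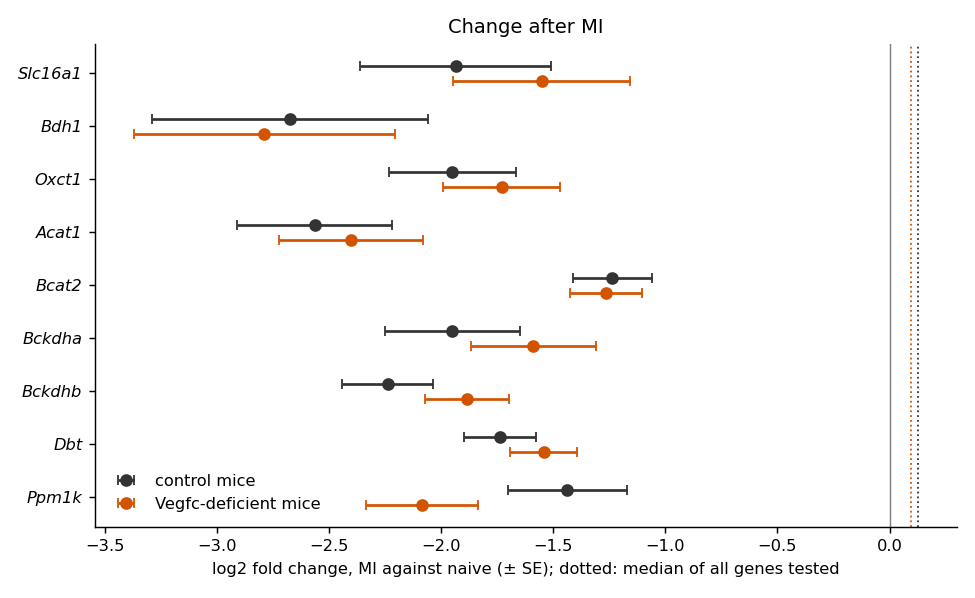
Log2 fold change of MI against naive for the 9 genes (points ± SE) in control and *Vegfc*-deficient mice, with dotted lines at the medians of all genes tested (0.13 and 0.10). All points lie to the left of 0, from -1.24 for *Bcat2* in control mice to -2.79 for *Bdh1* in *Vegfc*-deficient mice.

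Per kilobase of exon, *Oxct1* and *Acat1* were the most abundant of the 9 transcripts in all 4 groups. In naive controls *Oxct1* was at 354 ± 26.2 and *Acat1* at 269 ± 20.9 CPM per kb (SD, n = 2), followed by *Bckdhb* at 58.3 ± 2.62, and *Ppm1k* was the lowest at 8.88 ± 1.56. After MI in control mice *Oxct1* was at 91.5 ± 24.6, *Acat1* at 45.5 ± 14.2 and *Ppm1k* at 3.28 ± 0.856 CPM per kb (SD, n = 3). The middle of the order shifted: *Bdh1* had rank 5 in naive controls at 31.6 ± 2.07 and rank 8 after MI at 4.95 ± 3.48 CPM per kb, where its libraries overlapped those of *Dbt* (5.30 ± 0.545) and *Ppm1k*. In MI *Vegfc*-deficient mice the ranks from *Bckdhb* (14.8 ± 3.35) through *Slc16a1*, *Bcat2*, *Bdh1* and *Bckdha* to *Dbt* (6.64 ± 1.29) each overlapped with the next.

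Between genotypes, no gene of the 9 was called. After MI 0% of all genes tested were called by edgeR, as in naive mice (0%) and for the interaction of MI and genotype (0%), with 1173, 499 and 1226 of the 14779 genes at an unadjusted p under 0.05. DESeq2 called 62, 14 and 58 genes and limma-voom 0, 6 and 0, none of them among the 9. Of the 9 genes, *Dbt* alone had an unadjusted p under 0.05 in any of these contrasts. Its level was 17.7 ± 1.82 CPM in MI control and 22.2 ± 4.31 CPM in MI *Vegfc*-deficient mice (SD, n = 3 each). The log2 difference was 0.32 with a 95% interval of 0.000999 to 0.648 (edgeR adjusted p = 0.626). The intervals for the other genes after MI all held 0, from the narrow one of *Bcat2* (-0.44 to 0.26) to the wide one of *Bdh1* (-0.52 to 1.93). That of *Slc16a1* was -0.34 to 1.38. Differences of more than 2-fold in *Bdh1* and *Slc16a1* were therefore within what these libraries allow. For *Slc16a1*, *Oxct1* and *Acat1*, the difference in MI mice turned from above to below 0 without M35, to -0.038, -0.084 and -0.19.

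In naive mice 3 genes did not overlap between genotypes, *Bdh1*, *Dbt* and *Ppm1k*, each higher in the *Vegfc*-deficient libraries, beside 12.3% of all genes tested that lay wholly above. For *Dbt* and *Ppm1k* the nearest libraries almost met, at 61.6 CPM in control M45 and 62.1 CPM in M34, and at 60.1 CPM in M45 and 60.4 CPM in M149. The log2 difference of *Dbt* was 0.13, with an interval of -0.23 to 0.49. *Bdh1* was at 123 ± 8.04 CPM in control (SD, n = 2) and 217 ± 40.3 CPM in *Vegfc*-deficient mice (SD, n = 3), a log2 difference of 0.82 with an interval of -0.56 to 2.20, and *Ppm1k* at 53.5 ± 9.37 and 75.6 ± 13.2 CPM, a difference of 0.50 (-0.10 to 1.10). Neither passed the test (edgeR adjusted p = 1.0 for both). Without M149 these differences were 0.85 and 0.64, again not called (edgeR adjusted p = 0.906 and 0.743). The interaction estimates ran from -0.65 ± 0.36 for *Ppm1k* (edgeR adjusted p = 0.638) to 0.38 ± 0.58 for *Slc16a1* (adjusted p = 0.884). Without M149, all 9 genes were still called lower after MI in *Vegfc*-deficient mice, by 1.32 for *Bcat2* to 2.82 for *Bdh1*.

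The genes around these steps were followed with 33 further genes, of which 32 passed the filter on low counts. In control mice 19 were called lower and 5 higher after MI, beside 24.1% and 26.3% of all genes tested. In *Vegfc*-deficient mice 19 were called lower and 8 higher, beside 27.7% and 30.0%. Scaled on cardiomyocyte genes, however, the estimates of all 32 lay above 0 in both genotypes. Of the enzymes that finish BCAA oxidation after BCKDH, 14 of 14 were called lower in both genotypes under TMM scaling, with medians of -1.98 and -1.61. Their estimates ran from -2.47 to -0.905 in control and from -2.65 to -0.808 in *Vegfc*-deficient mice. *Mccc1*, a subunit of the carboxylase of leucine breakdown, changed by -2.47 ± 0.25 and -1.60 ± 0.23 (edgeR adjusted p = 0.000157 and 0.000254). *Mcee*, the epimerase that readies methylmalonyl-CoA from valine and isoleucine for the mutase, changed by -2.09 ± 0.28 and -2.65 ± 0.27 (adjusted p = 0.000391 and 5.73e-05). *Hsd17b10*, a dehydrogenase of isoleucine breakdown, and *Hibch*, a hydrolase of valine breakdown, changed by -2.07 ± 0.21 and -2.00 ± 0.40 in control and by -2.30 ± 0.20 and -2.24 ± 0.38 in *Vegfc*-deficient mice.

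Of 9 genes for BCAA transport, the first steps and their control, 3 were called lower in both genotypes. *Dld*, the E3 subunit that BCKDH shares with pyruvate dehydrogenase, changed by -2.02 ± 0.36 and -2.27 ± 0.34, and *Klf15*, a transcription factor known to promote BCAA catabolism in heart, by -1.86 ± 0.36 and -1.65 ± 0.33 (edgeR adjusted p = 0.00211 and 0.00187). *Bckdk*, described above, was the third. Called higher in both were *Slc7a5*, the light chain of the plasma membrane carrier for large neutral amino acids, at 0.605 to 3.73 CPM in naive and 6.76 to 17.5 CPM in MI libraries (1.64 ± 0.58 and 2.80 ± 0.54, edgeR adjusted p = 0.0384 and 0.00149), and *Bcat1*, the cytosolic aminotransferase. In *Vegfc*-deficient mice *Slc7a8* and *Slc43a1*, which carry the same amino acids, were called higher as well. Apart from *Klf15*, the genes of this list called lower act in the mitochondrion, and those called higher at the plasma membrane or in the cytosol. *Slc25a44*, a mitochondrial carrier of the same list, was called in neither genotype (-0.03 ± 0.19 and 0.40 ± 0.17, edgeR adjusted p = 0.919 and 0.0675).

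Of the ketone enzymes outside the 9 genes, *Bdh2*, a cytosolic dehydrogenase, and *Aacs*, which sends acetoacetate into lipid synthesis in the cytosol, were called higher in both genotypes. *Aacs* changed by 0.96 ± 0.24 in control and by 1.44 ± 0.22 in *Vegfc*-deficient mice (edgeR adjusted p = 0.0079 and 0.00036). Among 4 genes of monocarboxylate transport, *Bsg*, the chaperone that brings MCT1 to the membrane, fell from 1832 to 3053 CPM in naive to 623 to 906 CPM in MI libraries (-1.57 ± 0.27 and -1.50 ± 0.25, edgeR adjusted p = 0.00125 and 0.000661), and *Slc16a3* rose. After MI, 0 of these 32 genes were called between genotypes by edgeR, DESeq2 or limma-voom, and 0 had an edgeR p under 0.05. In naive mice and for the interaction edgeR called 0 as well, with 1 and 3 genes at an unadjusted p under 0.05. In naive mice 8 of the 32 lay wholly below control in *Vegfc*-deficient libraries and 1 above, beside 10.1% and 12.3% of all genes tested. Of the 14 enzymes after BCKDH, 5 lay wholly below and 0 above.

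**Figure D3:**
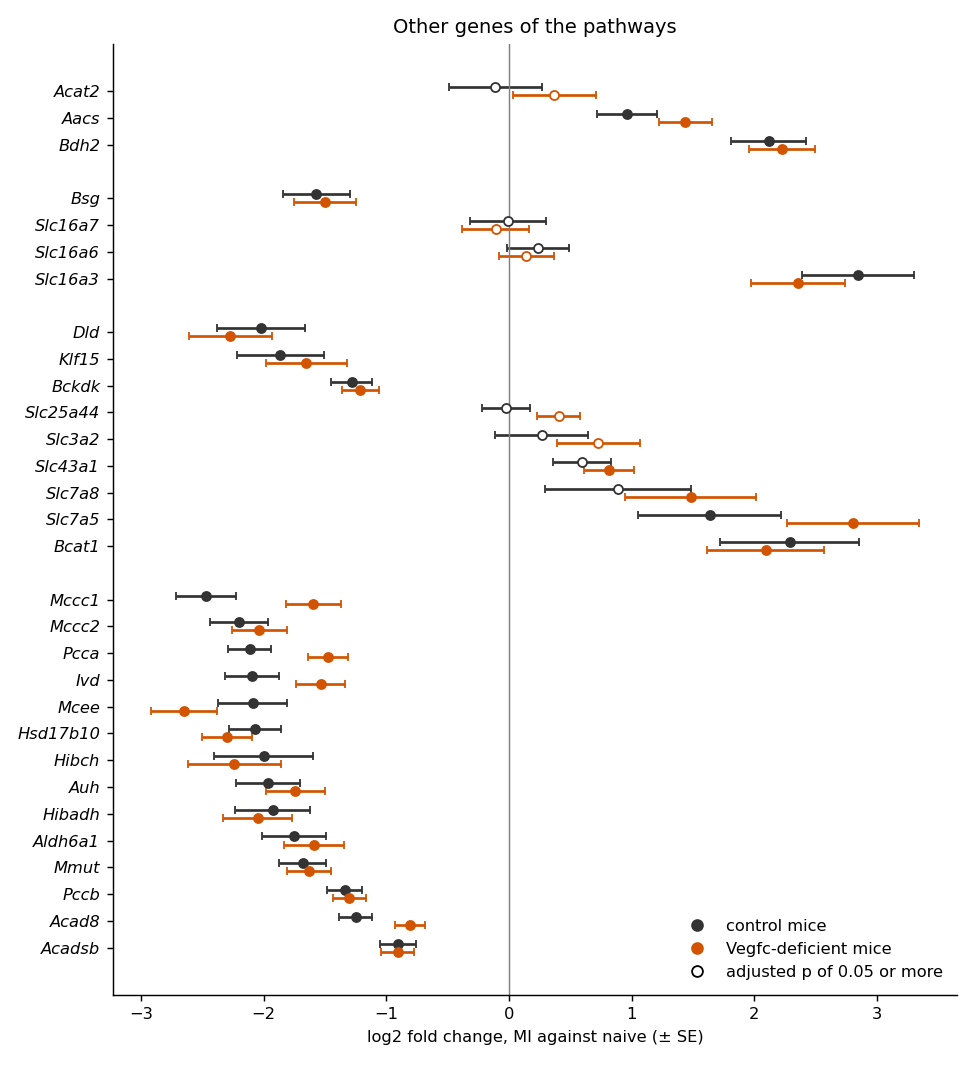
Log2 fold change of MI against naive (points ± SE) for 30 of the 32 further genes in control and *Vegfc*-deficient mice, in 4 blocks (top to bottom: ketone enzymes, monocarboxylate transport, BCAA transport and first steps, BCAA breakdown after BCKDH); open points did not pass the threshold. The lowest block lies wholly to the left of 0, whereas *Bdh2*, *Slc16a3*, *Slc7a5* and *Bcat1* lie to the right.

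For 3 of the 9 genes, a relative with related chemistry rose while the gene itself fell. Not every relative did: *Slc16a6* and *Slc16a7*, numbered in the same carrier family as *Slc16a1*, were called in neither genotype. They changed by 0.23 ± 0.25 and -0.0095 ± 0.309 in control mice (edgeR adjusted p = 0.462 and 0.982). In *Vegfc*-deficient mice the changes were 0.140 ± 0.225 and -0.11 ± 0.28 (edgeR adjusted p = 0.614 and 0.751). *Slc16a3*, the carrier MCT4, which exports lactate from glycolytic cells, went from 4.24 to 7.97 CPM in naive to 18.9 to 51.5 CPM in MI libraries (2.85 ± 0.46 and 2.36 ± 0.38, edgeR adjusted p = 0.000912 and 0.000568). Per kilobase it stood at 0.0159 to 0.0404 of the level of *Slc16a1* in naive and at 0.159 to 1.70 in MI libraries, exceeding it in M40 alone. The promoters of this pair, printed above, each held the hypoxia-inducible factor core and a GC box. The core was not particular to them. It was also in the windows of *Oxct1* and *Bcat2*, which fell, of *Bdh2*, which rose, and in a window of *Bcat1* but not in its other. The windows of *Bdh1*, *Bckdha*, *Bckdhb* and *Ppm1k* did not hold it.

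*Bcat1* went from 5.44 to 7.55 CPM in naive to 13.3 to 45.4 CPM in MI libraries (2.29 ± 0.57 and 2.09 ± 0.48, edgeR adjusted p = 0.00745 and 0.00402), and its level per kilobase relative to *Bcat2* from 0.0202 to 0.0319 to 0.127 to 0.465, so the mitochondrial form was still the more abundant in every library. *Bdh2* went from 1.67 to 2.78 CPM to 7.95 to 12.4 CPM (2.12 ± 0.31 and 2.22 ± 0.27, edgeR adjusted p = 0.00055 and 0.000117), and relative to *Bdh1* from 0.00728 to 0.0178 to 0.202 to 1.5. None of these ranges overlapped between naive and MI libraries, and 39.1% of all genes tested lay wholly above naive after MI in control and 33.6% in *Vegfc*-deficient mice. *Acat2*, the cytosolic relative of *Acat1*, did not pass the test in either genotype (-0.11 ± 0.38 and 0.37 ± 0.34, edgeR adjusted p = 0.822 and 0.373). In the same libraries 10 fibroblast genes summed to 4859 to 6774 CPM in naive and 30452 to 48504 CPM in MI tissue and 10 macrophage genes to 1841 to 2611 and 2496 to 6190 CPM. Their part in the rise of the relatives was not tested. Some other marker sets had lower sums after MI. The 6 adipocyte genes summed to 5018 to 6112 CPM in naive and 409 to 2081 CPM in MI libraries. Only 3 of the 6 were tested, and 1 was called lower in each genotype. The estimates of 2 of the 3 lay above 0 in control mice, and 1 did in *Vegfc*-deficient mice. In M44, M149 and M150, 4 of the 6 had no reads although the sums were 5018, 5306 and 6112 CPM. The adipocyte sum therefore does not stand for the whole set. The 5 red cell genes summed to 1092 to 4383 CPM in naive and 309 to 1375 CPM in MI libraries, ranges that overlap. By edgeR 0 of the 5 were called lower in control mice, where 0 had an unadjusted p under 0.05, and 5 in *Vegfc*-deficient mice. Of 10 endothelial genes 3 were called lower in each genotype and 2 higher in *Vegfc*-deficient mice. Their part in the fall of the 9 genes was not tested.

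**Figure D4:**
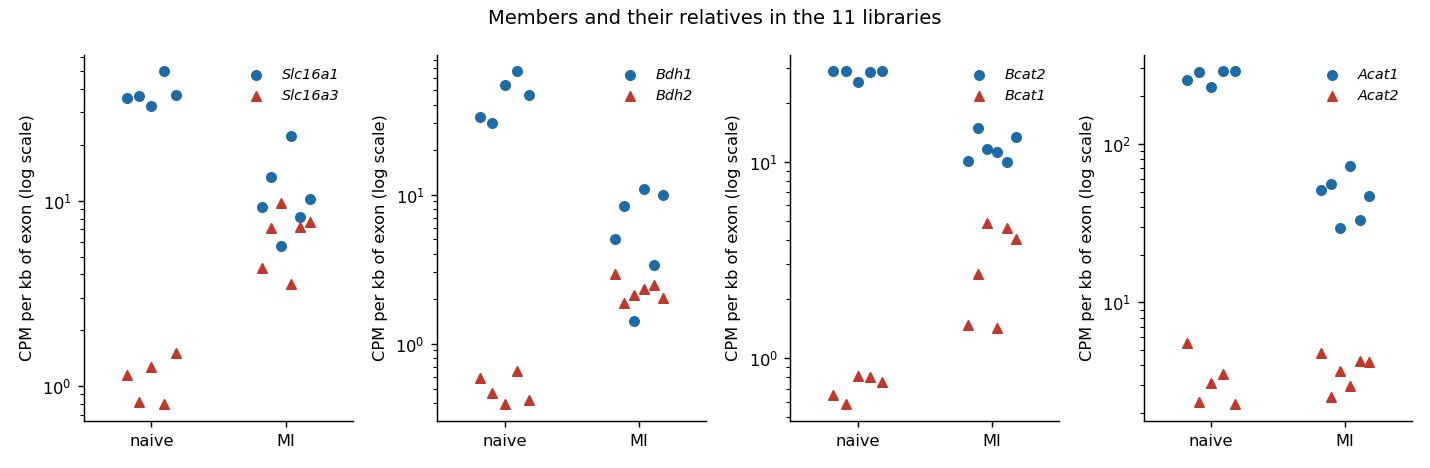
CPM per kb of exon (log axes) of *Slc16a1*, *Bdh1*, *Bcat2* and *Acat1* (circles) and of *Slc16a3*, *Bdh2*, *Bcat1* and *Acat2* (triangles) in the 5 naive and 6 MI libraries, both genotypes together. The triangles are higher after MI in the first 3 panels, crossing the circles in M40 for the carriers and for the 3-hydroxybutyrate dehydrogenase pair, while *Acat2* stays within its naive range.

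The 9 genes were next set against the loss of cardiomyocyte transcripts. Of 12 cardiomyocyte genes, 12 were called lower in control mice (median -3.03) and 11 in *Vegfc*-deficient mice (median -2.40), so the median of the 9 genes lay closer to 0 than theirs. Of 92 respiratory chain genes tested, 87 and 88 were called lower, with medians of -2.31 and -2.59. When libraries were scaled on the cardiomyocyte genes, 3 of the 9 genes were called higher in control mice, beside 90.0% of all genes tested, and 0 of 9 in *Vegfc*-deficient mice, beside 81.8%. These were *Bcat2* (2.47 ± 0.97), *Ppm1k* (2.08 ± 0.94) and *Dbt* (1.93 ± 0.94), with edgeR adjusted p = 0.0152, 0.0333 and 0.0478. Without M40 none of the 9 was called and the estimates were lower (1.39 for *Bcat2*, 1.39 for *Ppm1k* and 0.99 for *Dbt*). Without M44 or M45 none was called either, with estimates of 2.53 and 2.42 for *Bcat2*, 1.96 and 2.21 for *Ppm1k* and 1.93 and 1.94 for *Dbt*. Without M149, M150, M34 or M913 *Bcat2* alone was called, with *Ppm1k* at 2.08 and *Dbt* at 1.93 in each case, and without M38 there were 5 calls. In *Vegfc*-deficient mice 1 gene, *Bcat2*, was called without M35 or without M40. *Bdh1* and *Acat1* were the closest to the cardiomyocyte genes, at 0.34 ± 0.86 and 0.89 ± 0.85 in control and at -0.31 ± 0.76 and 0.17 ± 0.74 in *Vegfc*-deficient mice.

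Scaled on respiratory chain genes, 2 of the 9 genes were called higher in control mice, beside 86.1% of all genes, and 5 of 9 in *Vegfc*-deficient mice, beside 89.1%. *Bcat2* was called in both (1.08 ± 0.42 and 1.26 ± 0.37, edgeR adjusted p = 0.0218 and 0.00375). *Ppm1k* was the other gene in control mice (0.81 ± 0.37, adjusted p = 0.0478), and *Slc16a1*, *Oxct1*, *Bckdha* and *Dbt* were the others in *Vegfc*-deficient mice (0.73 to 0.95). Estimates for *Bdh1* were below 0 in both genotypes (-0.63 ± 0.43 and -0.41 ± 0.39, adjusted p = 0.175 and 0.328), and that for *Acat1* was -0.35 ± 0.33 in control and 0.03 ± 0.30 in *Vegfc*-deficient mice. These scalings moved the median of all genes to 3.89 and 2.92 (cardiomyocyte genes) and to 2.48 and 2.64 (respiratory chain genes) in control and *Vegfc*-deficient mice, and the medians of the 9 genes, 1.59 and 0.91, and 0.30 and 0.73, lay below them.

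**Figure D5:**
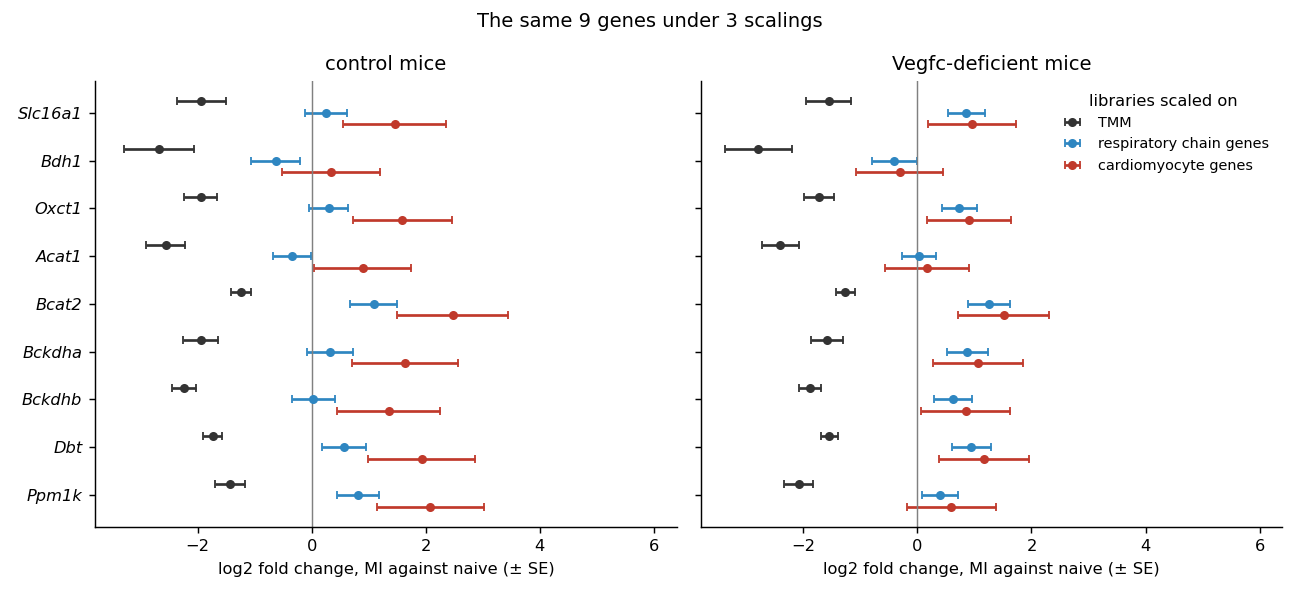
Log2 fold change of MI against naive (points ± SE) for the 9 genes when libraries are scaled by TMM (black), on respiratory chain genes (blue) or on cardiomyocyte genes (red). All black points lie left of 0, the blue ones lie near 0 or to its right except *Bdh1* and, in control mice, *Acat1*, and the red ones lie right of 0 except *Bdh1* in *Vegfc*-deficient mice.

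Among the 6 MI libraries, M40 had the lowest level of 7 genes and also the lowest cardiomyocyte sum (2913 CPM). M35 had the highest level of 7 genes and the highest cardiomyocyte sum (28203 CPM). M38 was highest for the other 2 and M900 lowest for the other 2. As deviations from the group means over the 11 libraries, the 36 pairs of genes had Pearson r from -0.08 to 0.97 with a median of 0.77, given as a description since the libraries share depth and tissue makeup. *Slc16a1* and *Oxct1* were the closest pair (r = 0.97), and *Acat1* and *Ppm1k* followed *Oxct1* closely (0.95 and 0.90). *Bcat2* stood apart, with r = 0.74 to *Bckdha* but 0.11 to *Dbt* and -0.08 to *Bckdhb*. The genes of closest pattern among 13444 with a mean log2 CPM of at least 0 were *Macrod1* for *Bdh1* (r = 0.991), *Abcc8* for *Oxct1* (0.995), *Il15* for *Acat1* (0.998) and *Keap1* for *Bcat2* (0.980). They were *Fam241b* for *Bckdha* (0.968), *Rab12* for *Bckdhb* (0.981), *Phlda1* for *Dbt* (0.995) and *Cops8* for *Ppm1k* (0.983). Each was picked as the highest r among these 13444 genes over 11 libraries. Such values are therefore high by selection and do not show a link between the genes.

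Other annotated genes overlap 8 of the 9, all but *Acat1*, and the strand setting of the counting was not given. Of the overlapping genes, 2 were counted in the files, both on the opposite strand. *B3gnt8*, a protein-coding gene that overlaps *Bckdha*, reached 29.4 CPM, and *0610005C13Rik*, which overlaps *Bcat2*, reached 0.847 CPM. Values of *Bckdha* are therefore the least certain in this respect.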

How the data were processed

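The 11 left ventricular libraries were prepared with a stranded mRNA kit and sequenced by the authors, who deposited raw counts per gene (whole numbers, 25006 Ensembl genes per file). Per the labels' processing notes, cutadapt 1.13, STAR, HTSeq 0.6.1p1 and DESeq2 1.14.1 were used with mm10; the strand setting was not given in the sources used here. Of the gene IDs, 24991 matched GENCODE M21 (GRCm38), which supplied symbols, positions and exon lengths. Total counts were 10824989 to 26782728 per library; the floor of 3 counts corresponds to 0.101 to 0.363 CPM, and covers counting error only.

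Counts were filtered with filterByExpr, scaled by TMM, and tested in 1 fit of all 11 libraries with edgeR 4.0.16 (quasi-likelihood, Benjamini-Hochberg; R 4.3.3). Each library was 1 mouse, from its label. Alternatives were DESeq2 1.42.0, limma-voom (limma 3.58.1), other filters and scalings, only the groups compared, stricter thresholds and leaving out each library. In simulated data for *Vegfc*-deficient against control mice after MI (14644 genes), 178 of 200 genes changed 4-fold were recovered, with 7 false calls. Smaller changes, such as the estimated 1.63-fold difference of *Bdh1* between genotypes after MI, were not simulated, so their recovery is not known.

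The 9 genes, the pathway and marker lists were chosen with earlier results of these data known. Named genes were the 9, up to 4 called genes per list with the largest change, *Bckdk*, *Dld*, *Klf15* and *Bcat1*, and for 8 of the 9 the gene of closest pattern; a few genes that this rule names are not reported here. *Acat2*, *Slc7a8*, *Slc43a1*, the overlapping genes and the ratios were chosen after their values were seen. Pooled correlations over libraries are not given, because naive and MI libraries form separate clusters. Promoters are RefSeq sequences.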

Additional observations from a re-analysis of the deposited data

How the results depend on the processing

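All 9 genes were called lower after MI, in both genotypes, with the other tools, filters and thresholds, in the fit of the compared groups alone, with relative log expression or library size in place of TMM, and without each library in turn (162 further values per genotype, thresholds aside), whereas none was called lower when libraries were scaled on cardiomyocyte or respiratory chain genes. Over all genes, the number called in control mice was 4798 at an adjusted p under 0.01 and 4550 when a change of 1 or more on the log2 scale was also asked for, and 4965 in *Vegfc*-deficient mice with the latter. Leaving out single libraries gave 4574 (without M45) and 4880 (without M44) to 7636 (without M149) in control mice. Between genotypes, DESeq2 called 62 genes after MI, 14 in naive mice and 58 for the interaction, limma-voom 6 in naive mice, and a fit of the naive groups alone 2. Without single libraries edgeR called 0 to 1 genes after MI, 0 to 17 in naive mice (17 without M149) and 0 to 1 for the interaction. None of the 9 was among them under any alternative.

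Estimates near 0 changed sign. For *Bcat2* the difference between genotypes after MI was 0.0070 with limma-voom, and the interaction was 0.033 with library size only and 0.047 with limma-voom. With limma-voom, *Acat1* was at 0.034 in naive mice and -0.012 for the interaction, and *Bdh1* at 0.12 for the interaction. Without single libraries, the difference after MI ranged from -0.084 to 0.43 for *Oxct1*, -0.21 to 0.11 for *Bcat2*, -0.19 to 0.41 for *Acat1*, -0.038 to 0.91 for *Slc16a1* and -0.37 to 0.058 for *Ppm1k*. The difference in naive mice ranged from -0.12 to 0.032 for *Oxct1*, -0.086 to 0.096 for *Acat1*, -0.063 to 0.26 for *Slc16a1* and -0.41 to 0.031 for *Bckdha*. The interaction ranged from -0.039 to 0.48 for *Oxct1*, -0.14 to 0.18 for *Bcat2*, -0.18 to 0.42 for *Acat1*, -0.17 to 0.78 for *Slc16a1* and -0.56 to 0.56 for *Bdh1*. None of these was called.

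Relative to cardiomyocyte genes, 0 to 5 of the 9 genes were called in control and 0 to 1 in *Vegfc*-deficient mice without single libraries, and *Acat1* in *Vegfc*-deficient mice ranged from -0.11 to 0.39. With respiratory chain genes as reference, 5 were called in *Vegfc*-deficient mice, and in control mice *Acat1* and *Bdh1* were at -0.35 and -0.63. The cause of these shifts was not tested. With 2 naive controls, leaving one out leaves a single library, assumed to vary like the other groups. No paired analysis was possible because each mouse number occurs once. Each of the 9 genes had 150 or more reads in every library, and the groups held 2 or 3 mice.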
